A study of Mus musculus with 12 samples.

Results

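The genes described here are Trp53, its paralogues Trp63 and Trp73, and Mdm2 and Mdm4, whose proteins restrain p53. The 5 genes were taken by symbol from a table of 46078 genes, each symbol matched 1 row, and all 5 were among the 14582 genes that passed a filter on low counts. Levels are CPM, a gene's count relative to its library's size as scaled by TMM. The libraries came from skin epidermis of newborn mice, in 4 genotype groups of 3 mice. All 4 groups carried K14-Cre, a transgene in which the keratin 14 promoter drives Cre recombinase in basal keratinocytes and so in their progeny. Controls had K14-Cre with no floxed allele named. Llgl cKO mice were K14-Cre/Llgl1/2 flox/flox, with conditional loss of the polarity genes Llgl1 and Llgl2. Trp53 het mice were K14-Cre/Trp53 +/flox, with conditional loss of a single Trp53 allele. Llgl cKO Trp53 het mice combined both sets of floxed alleles, Llgl1/2 flox/flox and Trp53 +/flox, with K14-Cre. Cells in which the keratin 14 promoter is not active, such as melanocytes and immune cells, are not targeted by this Cre and keep their floxed alleles intact. Strain and batch were not given in the sources used here. The question put by the design was how the expression of epidermal genes differs between these genotypes.

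The p53 protein is a transcription factor that responds to DNA damage and other stress by switching on genes for cell cycle arrest, repair and cell death. Mdm2 is a ubiquitin ligase that marks p53 for degradation, and its own gene is activated by p53, which closes a feedback loop. Mdm4 resembles Mdm2, binds p53 and blocks its transcriptional activity. In epidermis p63, mostly as its ΔN isoforms, is the master regulator of basal keratinocytes, whereas p73 is best known for roles in multiciliated cells, the nervous system and the response to genotoxic stress. Much of the control of p53 acts on the protein, which RNA counts do not measure.

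The promoters of Trp53 and Mdm2 are shown because p53 acts on the Mdm2 gene and because the Trp53 promoter lies beside another gene, Wrap53. Both sequences are from RefSeq, build GRCm38.p6, written 5′ to 3′ on the gene's own strand and ending at the base before the annotated start. Capitals mark a match to the p53 half-site consensus, which was searched on both strands. The Trp53 stretch, chr11:69580256-69580358 on the + strand, is the 103 bases between the Wrap53 and Trp53 starts. The Mdm2 stretch, chr10:117710759-117711008 on the − strand, is 250 bases long.
Trp53: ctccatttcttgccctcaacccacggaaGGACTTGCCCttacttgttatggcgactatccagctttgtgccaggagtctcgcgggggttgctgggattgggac
Mdm2: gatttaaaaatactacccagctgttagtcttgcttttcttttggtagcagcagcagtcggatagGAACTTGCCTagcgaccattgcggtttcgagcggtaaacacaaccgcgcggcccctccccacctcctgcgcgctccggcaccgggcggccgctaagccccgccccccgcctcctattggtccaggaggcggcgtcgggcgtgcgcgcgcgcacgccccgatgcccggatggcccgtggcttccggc
The match lay 65 bases from the start of Trp53 and 176 bases from the start of Mdm2. A half-site match was present in 7.13% of the 32851 promoter windows of 250 bases, so a match is a description of the letters and not a binding site. The response elements through which p53 is known to act on Mdm2 lie in an intron, outside this window. The 2 annotated starts of Mdm4 and the 2 of Trp73 had no match in their windows, and Trp63 was not matched in the promoter table.

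Basal keratinocyte markers were high in every library, with Krt5 between 7395 and 10768 CPM and Krt14 between 3511 and 5722 CPM, and endothelial and muscle markers each summed to at most 1.61 CPM. Column totals ran from 6738720 to 14509507 counts. A library labelled Trp53 het, replicate 3, carried as much Trp53 as the controls, unlike the other libraries labelled heterozygous. It is written below as the library labelled Trp53 het 3, whether its genotype label is right was not tested, and it is part of every Trp53 het value unless it is said to be left out. With control 3 it also had the lowest hair marker sums of the 6 libraries with intact Llgl1/2, at 2144 and 1460 CPM against 4372 to 6772 CPM in the other 4. Fewer cells of a type and less RNA per cell cannot be told apart in these bulk samples. A count over the whole gene does not resolve the floxed exons, so no Trp53 level below measures recombination directly.

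Trp53 transcript was lower in 5 of the 6 libraries labelled heterozygous than in any of the 6 with both alleles, and in the remaining one, the library labelled Trp53 het 3, it lay within the control range. Trp53 (ENSMUSG00000059552, chr11:69580359-69591873, GRCm38) was at 130.5, 109 and 123 CPM in the 3 controls and at 120.5, 122 and 112 CPM in the 3 Llgl cKO mice. It was at 61.8 and 60.9 CPM in Trp53 het 1 and 2 and at 115 CPM in the library labelled Trp53 het 3. The Llgl cKO Trp53 het mice had 98.3, 67.8 and 65.9 CPM. The 6 libraries with intact Trp53 thus lay close together, with a mean of 119.5 ± 7.92 CPM (SD, n = 6). The 6 libraries labelled heterozygous spread from 60.9 to 115 CPM around a median of 66.8 CPM. All 3 Llgl cKO Trp53 het libraries lay below all 3 Llgl cKO libraries, whereas the Trp53 het and control ranges overlapped through the library labelled Trp53 het 3 alone. The control and Llgl cKO groups averaged 121 ± 10.98 and 118 ± 5.50 CPM, against 79.2 ± 30.9 CPM for Trp53 het and 77.3 ± 18.2 CPM for the double mutants (SD, n = 3).

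**Figure D1:**
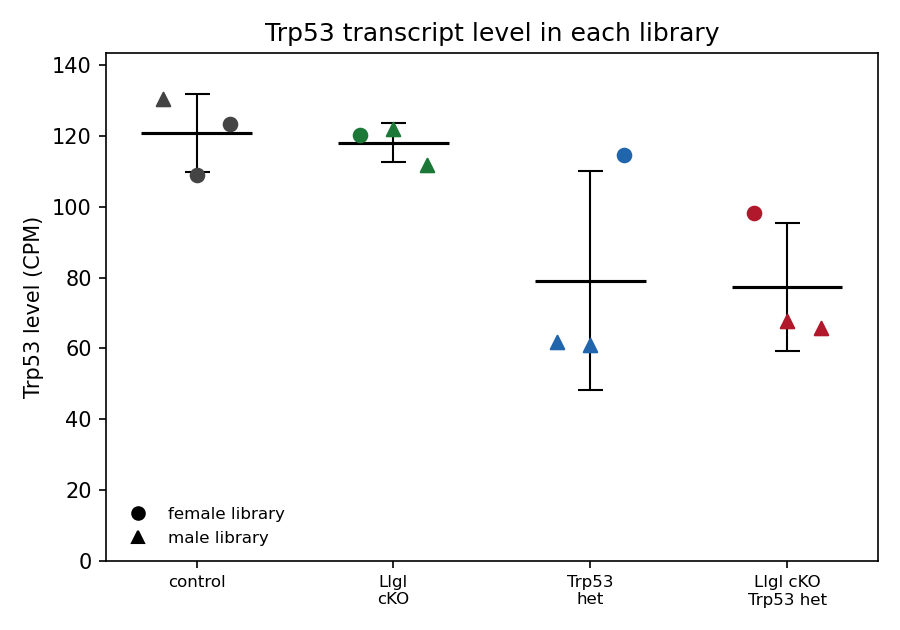
Trp53 level in CPM (y axis, from 0) in each of the 12 libraries, by genotype group (x axis). Points are libraries, circles for female and triangles for male, horizontal lines are group means and bars are SD; 4 of the 6 libraries labelled heterozygous sit between 60.9 and 67.8 CPM, and the other two at 98.3 and 115 CPM.

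Averaged over both Llgl genotypes, Trp53 in the 6 libraries labelled heterozygous was 0.656 times its level with both alleles, with a 95% interval of 0.511 to 0.842. On the log2 scale the average Trp53 effect was -0.61 (SE 0.16, interval -0.97 to -0.25), where a fall to 50% would be -1. The unadjusted p was 0.0033, rank 5 of 14582 genes, and the adjusted p over all genes was 1.00 in edgeR's quasi-likelihood test, so Trp53 was not called. Its log2 difference was -0.61 in Trp53 het against control (interval -1.12 to -0.095, adjusted p = 1.00) and -0.61 in Llgl cKO Trp53 het against Llgl cKO (interval -1.12 to -0.10, adjusted p = 0.876). The interaction, which is the difference between these 2 effects, was -0.0041 with an interval of -0.72 to 0.72. The exact two-sided permutation test of log2 CPM over 400 reassignments gave p = 0.01 for the Trp53 effect on Trp53, where the smallest p possible was 0.005, and 0.1 after adjustment over 10 tests. Without the library labelled Trp53 het 3 the average log2 difference was -0.79 (adjusted p = 0.174) and that of Trp53 het against control was -0.98 (adjusted p = 0.729). Leaving out Trp53 het 1 or 2 instead brought the Trp53 het difference to -0.45 and -0.44.

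The 2 libraries labelled heterozygous with the most Trp53 were also the only female ones in their groups, by Xist and Y-linked transcripts. The 4 male heterozygotes had 60.9 to 67.8 CPM of Trp53, against 112 to 130.5 CPM in the 3 male libraries with both alleles. Of the 2 female libraries labelled heterozygous, Llgl cKO Trp53 het 1 had 98.3 CPM and the library labelled Trp53 het 3 had 115 CPM, against 109 to 123 CPM in the 3 female libraries with both alleles. Male ranges were thus far apart, and female ranges overlapped through the library labelled Trp53 het 3 alone. In a fit of the 7 male libraries the average log2 difference was -0.94 (adjusted p = 0.125), that of Trp53 het against control was -1.08 (adjusted p = 0.468) and that of Llgl cKO Trp53 het against Llgl cKO was -0.80 (adjusted p = 0.0632). That fit held 1 male control, which is assumed to vary like the other groups, and the difference between the sexes was not tested. T cell markers, 6 genes in all, summed to 35.9 and 33.6 CPM in Trp53 het 1 and 2 and to 7.45 CPM in the library labelled Trp53 het 3. Hair markers (10 of 11 listed genes were in the table) and adipocyte markers (4 genes) were lower there too, the latter at 2.71 against 17.4 and 13.1 CPM. Control 3 had similarly low hair and adipocyte sums, 1460 and 2.02 CPM, with Trp53 at 123 CPM. In the library labelled Trp53 het 3 the sebocyte sum (6 genes) was also below that of Trp53 het 1 and 2, at 729 CPM against 904 and 771. Its basal keratinocyte sum (6 genes) was 16769 CPM against 19011 and 19758. Markers of some other cell types were higher in the library labelled Trp53 het 3 than in Trp53 het 1 and 2. Fibroblast markers (6 genes) summed to 138 CPM against 32.6 and 34.6, Langerhans cell and macrophage markers (6 genes) to 122 against 74.8 and 80.8, and melanocyte markers (5 genes) to 527 against 334 and 381. Control 3 was likewise the highest control in these 3 sums, at 143, 124 and 475 CPM. In Llgl cKO Trp53 het 1 the T cell sum was 12.2 CPM, above the 3.33 and 1.09 CPM of the other two, and the Langerhans cell and macrophage sum was 218.5 CPM against 84.1 and 63.4. Its fibroblast sum was the lowest of its group, at 172 CPM against 229 and 239. Its hair and sebocyte sums were the highest of its group, at 443 CPM against 130.3 and 162 and at 444 CPM against 373 and 330. The part of these cell types in the Trp53 level was not tested.

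No member was called in any of the 7 comparisons. In the average Trp53 effect and in Trp53 het against control 0% of all tested genes were called by edgeR, with 316 and 63 at an unadjusted p below 0.05 and 0 by DESeq2 in both. In Llgl cKO Trp53 het against Llgl cKO edgeR also called 0%, with 747 genes at an unadjusted p below 0.05 and 52 called by DESeq2. The interaction had 0% called, 428 genes at an unadjusted p below 0.05 and 0 by DESeq2. The average Llgl effect called 3.33% of genes, Llgl cKO against control 0.226%, and Llgl cKO Trp53 het against Trp53 het 1.36%. Trp53 was the member with an unadjusted p below 0.05, in the 3 comparisons of Trp53 genotype, and no other member had one in any comparison. DESeq2 called no member either. The 4 comparisons of pairs of groups share groups with each other and with the averages, so their values are not independent.

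Trp63 had the highest level of the 5 members, and its 4 groups overlapped. Trp63 (ENSMUSG00000022510, chr16:25683763-25892102) was at 236, 346 and 369 CPM in the controls and at 427, 421 and 348 CPM in Llgl cKO mice. It was at 375, 312 and 377 CPM in Trp53 het mice and at 350.0, 336 and 448 CPM in Llgl cKO Trp53 het mice. Control 1 was the lowest of the 12 libraries and Llgl cKO Trp53 het 3 the highest, and every pair of groups overlapped. The average Trp53 effect was 0.043 on the log2 scale, with an interval of -0.24 to 0.33 that leaves room for a ratio between 0.847 and 1.25. The average Llgl effect was 0.21 (interval -0.071 to 0.49, adjusted p = 0.428), and without control 1 it was 0.12. A gene count sums all isoforms, so TAp63 and ΔNp63 transcripts were not separated.

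Trp73 was lower on average in Llgl cKO epidermis, within the spread between mice. Trp73 (ENSMUSG00000029026, chr4:154056253-154140208) was at 73.7, 66.4 and 56.1 CPM in the controls and at 57.3, 65.4 and 47.8 CPM in Llgl cKO mice. Trp53 het mice had 70.4, 75.6 and 55.5 CPM and Llgl cKO Trp53 het mice had 63.7, 54.8 and 54.9 CPM. The ranges of all pairs of groups overlapped, and control 3 and the library labelled Trp53 het 3 were the lowest of their groups. The average Llgl effect was -0.21 (interval -0.45 to 0.034, adjusted p = 0.351). The average Trp53 effect was 0.031, with an interval of -0.21 to 0.27.

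Mdm2 group means lay between 54.7 and 59.5 CPM. Mdm2 (ENSMUSG00000020184, chr10:117688875-117710758) was at 69.5, 56.3 and 47.6 CPM in the controls and at 62.6, 55.5 and 55.6 CPM in Llgl cKO mice. It was at 59.2 and 60.9 CPM in Trp53 het 1 and 2, at 44.0 CPM in the library labelled Trp53 het 3, and at 56.4, 62.4 and 59.7 CPM in Llgl cKO Trp53 het mice. The lowest Mdm2 level of all was thus in the library labelled Trp53 het 3, whose Trp53 was in the control range, and the next lowest in control 3. The average Trp53 effect was -0.019 (interval -0.26 to 0.22), which corresponds to a ratio of 0.987 with bounds of 0.836 and 1.16. Without the library labelled Trp53 het 3 it was 0.049. The average Llgl effect was 0.065 (interval -0.17 to 0.30, adjusted p = 0.804).

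Mdm4 had its lowest group mean in Llgl cKO Trp53 het epidermis, again within the spread. Mdm4 (ENSMUSG00000054387, chr1:132959484-133030561) was at 191, 229 and 190.1 CPM in the controls and at 153, 223 and 184 CPM in Llgl cKO mice. Trp53 het mice had 179, 195 and 196 CPM and Llgl cKO Trp53 het mice had 192, 138 and 164 CPM. The double mutants reached from the lowest value of all up into the control range. The average Trp53 effect was -0.14 (interval -0.39 to 0.11, adjusted p = 1.00) and the average Llgl effect was -0.17 (interval -0.41 to 0.081, adjusted p = 0.481). For Trp63, Trp73, Mdm2 and Mdm4 the exact permutation test gave p of at least 0.09 for either effect.

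**Figure D2:**
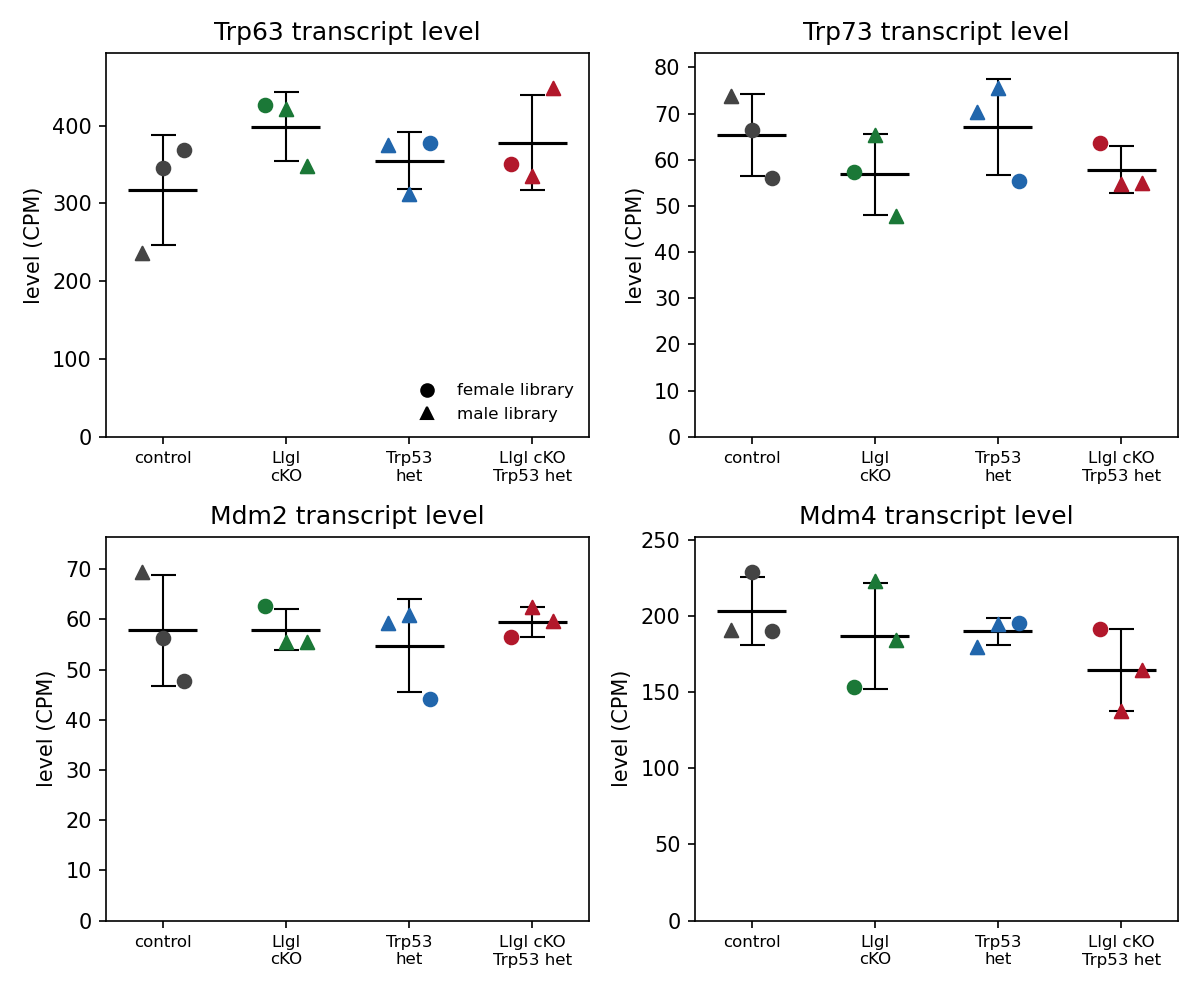
Levels in CPM (y axes, each from 0) of Trp63, Trp73, Mdm2 and Mdm4 in each library, by genotype group (x axes). Circles are female and triangles male libraries, lines are group means and bars are SD (n = 3); in all 4 genes the ranges of every pair of groups overlap.

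**Figure D3:**
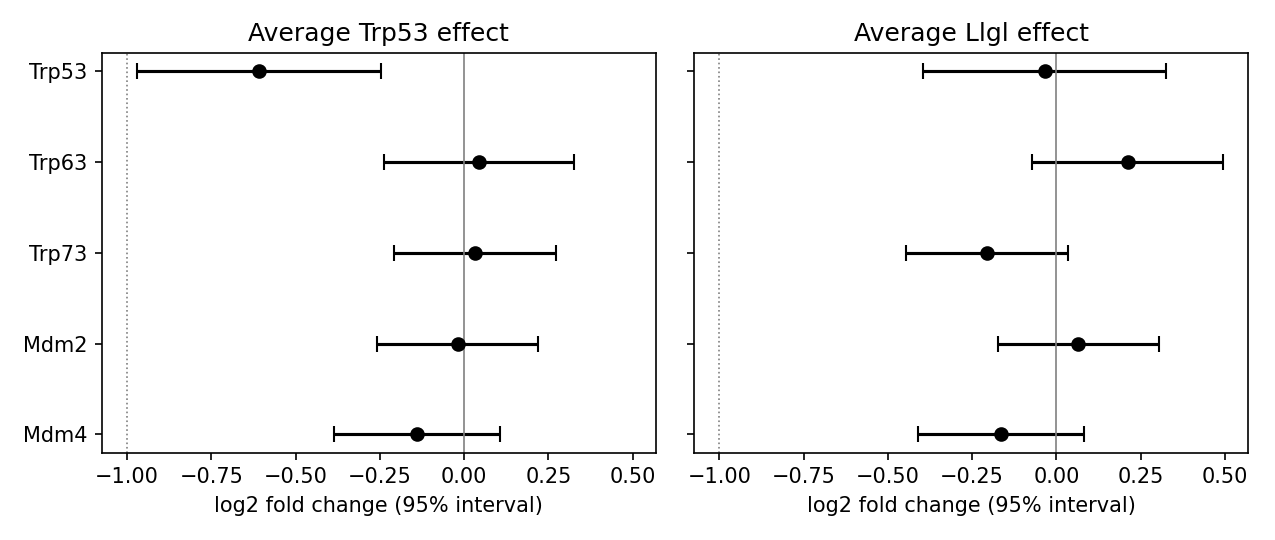
Log2 fold change (x axis) of each member (y axis) in the average Trp53 effect, heterozygous against intact, and the average Llgl effect, Llgl cKO against intact, each 6 against 6 libraries. Points are edgeR estimates and bars 95% intervals, with 0 as a solid line and -1, a fall to 50%, as a dotted line; Trp53 in the average Trp53 effect is the one interval that excludes 0, at -0.97 to -0.25.

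Per kilobase of exon, Trp63 and Trp53 stood above Mdm4, Trp73 and Mdm2 in control epidermis. Control means were, for Trp63, 37.7 ± 8.44 CPM per kilobase, for Trp53 29.9 ± 2.72, for Mdm4 13.7 ± 1.52, for Trp73 11.8 ± 1.602 and for Mdm2 11.4 ± 2.17 (SD, n = 3). Trp63 and Trp53 did not differ beyond their spread in control, where control 1 had less Trp63 than Trp53 per length, and the lower 3 genes overlapped one another. In Trp53 het epidermis Trp53 was at 19.6 ± 7.63 CPM per kilobase and Trp63 at 42.3 ± 4.40, and in Llgl cKO Trp53 het epidermis they were at 19.1 ± 4.50 and 45.1 ± 7.31. The lowest Trp63 value was above the highest Trp53 value in both of these groups and also in Llgl cKO, where the values were 41.5 and 30.2 CPM per kilobase. The ratio of Trp63 to Trp53 per length within a library averaged 1.28 ± 0.357 in control and 1.62 ± 0.109 in Llgl cKO, and 2.33 ± 0.684 and 2.46 ± 0.785 in the corresponding heterozygous groups (SD, n = 3). Mdm2 per Trp53 was 0.307 to 0.424 in control and 0.362 to 0.414 in Llgl cKO. It was 0.305 to 0.796 in Trp53 het, with the lowest value in the library labelled Trp53 het 3, and 0.457 to 0.733 in Llgl cKO Trp53 het. Both sets of ratios contain the Trp53 level itself, so they are no evidence of a change in Trp63 or Mdm2.

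Across the libraries Trp53 varied most. Over all 12 the coefficient of variation was 27.3% for Trp53, 15.6% for Trp63, 14.0% for Trp73, 13.9% for Mdm4 and 11.8% for Mdm2. After each group's mean was subtracted, the 10 pairs of members were compared over the 12 libraries, taken as independent. The permutations shuffled the deviations over all libraries, although those of a group are tied by its subtracted mean. Their p-values are therefore approximate and may be too small. Deviations of same-numbered control and Trp53 het libraries correlated across genes, least for replicates 2 at 0.21. The pairs of members were therefore also compared over 9 values, in which those 3 same-numbered pairs of libraries were averaged. This choice was made after seeing the data, and the limit on the p-values holds for the 9 values too. Trp73 and Mdm2 had r = 0.67 (permutation p = 0.017, adjusted over 10 pairs 0.168; rho = 0.48, p = 0.115), and r = 0.55 without the 2 libraries farthest from the Trp73 median. Over the 9 values it was 0.48 (exact permutation p = 0.192, adjusted 0.658; rho = 0.17, p = 0.678), and -0.21 without Llgl cKO 3 and the averaged replicates 3 of control and Trp53 het, so the relation rests on those libraries. Trp53 and Mdm2 had r = -0.56 (permutation p = 0.0596, adjusted 0.199; rho = -0.58, p = 0.0522). Without the library labelled Trp53 het 3 and Llgl cKO Trp53 het 1 that r was -0.17, so the relation rests on those 2 libraries. Over the 9 values it was -0.66 (exact permutation p = 0.0556, adjusted 0.556; rho = -0.65, p = 0.0666). Trp63 and Mdm2 had r = -0.57 (permutation p = 0.0568, adjusted 0.199; rho = -0.39, p = 0.210) and r = -0.44 without control 1 and Llgl cKO 3. Over the 9 values it was -0.36 (exact permutation p = 0.353, adjusted 0.658; rho = -0.20, p = 0.613). None of the 10 pairs passed after adjustment either way.

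By the measure of likeness used, none of the genes compared followed the Trp53 pattern closely. Likeness was the root mean square difference of log2 CPM, centred on each gene's mean over the 12 libraries. It was taken among 10415 genes with a mean of at least 5 CPM. Pseudogenes, genes without an annotated type and genes with predicted, clone or Riken names were left out. For Trp53, whose own SD was 0.43, the nearest genes were Tatdn3, Zfp653 and Phlpp2 at 0.268, 0.270 and 0.271, and 0 genes lay within 0.2. Around Trp63, with an SD of 0.24, 631 genes lay within 0.2, with Atf2 and Mbtd1 among the nearest at 0.107 and 0.111. Trp73 was nearest Acp6, Josd2 and Echdc2 (0.0685, 0.0801 and 0.0823) and Mdm4 nearest Rprd1a, Ttc14 and Lrp6 (0.0899, 0.0973 and 0.0981). Mdm2 was nearest Tbc1d22a, Pmm1 and Ist1 (0.0497, 0.0567 and 0.0621), with 2628 genes within 0.2. A gene that varies little is near many others by this measure, and the libraries share depth and cell composition.

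No annotated gene overlaps Trp53 or Mdm2, and the few that overlap the other members had at most 0.355 CPM on average and were not tested. Wrap53, which starts 103 bases from Trp53 on the opposite strand and encodes a telomerase and Cajal body protein, had an average Trp53 effect of -0.066 (interval -0.35 to 0.22). Of the 51 tested genes within 500 kb of Trp53, 0 were called in the comparisons of Trp53 genotype, where edgeR called 0% of all tested genes. The median average Trp53 effect of the 51 was 0.0061. Sat2, a polyamine acetyltransferase homologue at chr11:69622024-69623870, was singled out after its values were seen. It was at 0.818, 0.935 and 1.29 CPM in the controls and at 1.72, 1.38 and 1.23 CPM in Llgl cKO mice. It was at 3.69 and 4.80 CPM in Trp53 het 1 and 2, at 1.28 CPM in the library labelled Trp53 het 3, and at 3.53, 4.70 and 4.35 CPM in Llgl cKO Trp53 het mice. The library labelled Trp53 het 3 therefore lay with the intact libraries in Sat2 as in Trp53, and the other 5 libraries labelled heterozygous lay above all 6 intact ones. Sat2 had the smallest p of all genes in the average Trp53 effect (log2 difference 1.57, SE 0.30), which did not pass adjustment (adjusted p = 1.00 in edgeR), with 5 to 55 counts per library behind it. Without control 3 and the library labelled Trp53 het 3 it was 1.88 (adjusted p = 0.0422), and without the latter alone 1.77 (adjusted p = 0.0562). That library had the lowest Sat2 of those labelled heterozygous, so leaving it out raises the difference. These values are therefore no independent support for a change in Sat2.

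**Figure D4:**
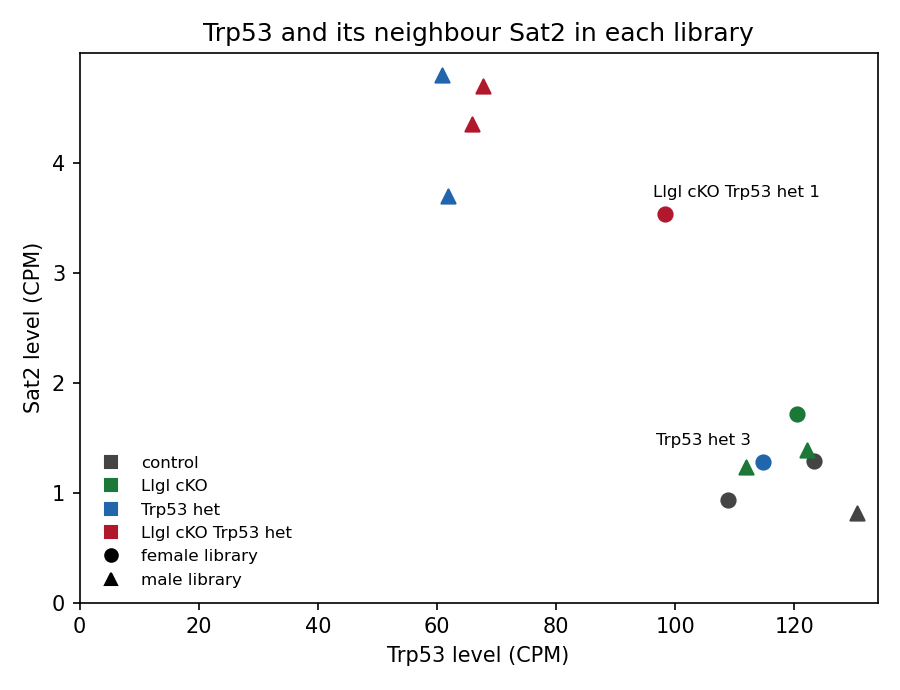
Sat2 level (y axis, CPM) against Trp53 level (x axis, CPM) in each of the 12 libraries, coloured by genotype group, with circles for female and triangles for male libraries. The library labelled Trp53 het 3, at 115 CPM of Trp53 and 1.28 CPM of Sat2, sits among the libraries with intact Trp53. Llgl cKO Trp53 het 1, at 98.3 and 3.53 CPM, lies between in Trp53 only, and in Sat2 it lies above all libraries with intact Trp53.

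No gene of the p53 target list was called with Trp53 genotype, where edgeR called 0% of all tested genes. Of 36 listed target genes 35 were tested, and 0 were called in any of the 7 comparisons by edgeR, which called 0% to 3.33% of all genes in them. At an unadjusted p below 0.05 there were 0 in each of the 3 comparisons of Trp53 genotype. Over all genes 2.17% had one in the average Trp53 effect, 0.432% in Trp53 het against control and 5.12% in Llgl cKO Trp53 het against Llgl cKO. In those 3 the count of targets by DESeq2 was 0 as well. The median average Trp53 effect of the 35 was -0.015, against -0.0075 over all tested genes, with 14 above 0 and 21 below. In Trp53 het against control the median was -0.10 (all genes -0.0097), with 13 above 0 and 22 below. In Llgl cKO Trp53 het against Llgl cKO it was 0.026 (all genes -0.00062), with 19 above 0 and 16 below. Eda2r, a death receptor gene, and Ephx1, an epoxide hydrolase, had the smallest p in the average Trp53 effect, with log2 differences of -0.56 and -0.20 (adjusted p = 1.00 for both).

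Cdkn1a, Ccng1 and Bax are named as textbook targets, outside the naming rule. Cdkn1a, the cell cycle inhibitor p21, was at 574, 498 and 324 CPM in control and at 539, 492 and 337 CPM in Trp53 het mice, the last being the library labelled Trp53 het 3. In Llgl cKO mice it was at 454, 366 and 415 CPM and in Llgl cKO Trp53 het mice at 324, 499 and 394 CPM. The groups overlapped, and the average Trp53 effect was -0.025 (interval -0.39 to 0.34). Ccng1, which encodes cyclin G1, lay between 32.2 and 46.9 CPM in all libraries with an average Trp53 effect of -0.088 (interval -0.36 to 0.18). Bax, a pore-forming cell death gene, lay between 24.4 and 31.0 CPM with -0.017 (interval -0.20 to 0.17).

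In the average Llgl effect the p53 targets had a median of -0.0014 (all genes -0.0026), with 4 of 35 at an unadjusted p below 0.05, where 18.2% of all genes had one, and 1 called by DESeq2, where DESeq2 called 7.10% of all genes. Aen, an apoptosis-enhancing nuclease, had the smallest p, averaging 56.8 ± 4.45 CPM in control and 40.5 ± 4.77 CPM in Llgl cKO mice, with an average log2 difference of -0.39 (adjusted p = 0.0792). Tigar, a fructose bisphosphatase, had -0.36 (adjusted p = 0.202). Without control 3 and the library labelled Trp53 het 3, 7 of the 35 targets were called in the average Llgl effect, where that fit called 15.8% of all genes. Ckap2 and Gtse1, genes of dividing cells, were higher by 1.36 and 1.26 on the log2 scale (adjusted p = 3.3e-05 and 0.000104), as were Psrc1, Pidd1 and Apaf1 by 0.53, 0.55 and 0.44, while Aen was at -0.43 and Phlda3 at -0.35. In all, that fit called 2334 genes, against 485 with all libraries. Hair markers summed to 1006 to 3228 CPM in Llgl cKO and 130.3 to 443 CPM in Llgl cKO Trp53 het mice. They summed to 1460 to 6772 CPM in control and 2144 to 5420 CPM in Trp53 het mice. T cell markers summed to 1.09 to 12.2 CPM over both Llgl cKO groups and 14.7 to 25.8 CPM in control. In Trp53 het mice the T cell sums were 7.45 to 35.9 CPM, which overlap the Llgl cKO range. The part of hair and T cell markers in these differences was not tested.

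Genes acting upstream of or beside p53 were also read from the same fit. Of 22 kinases, acetylases and cofactors such as Atm, Chek2 and Ep300, and of 19 other inhibitors and ubiquitin ligases such as Usp7 and Ppm1d, 0 were called in any comparison by edgeR or DESeq2 and 0 had an unadjusted p below 0.05. Their median average Trp53 effects were -0.035 and 0.0062. Over all tested genes edgeR called 0% to 3.33%, depending on the comparison, and DESeq2 called 7.10% in the average Llgl effect. The share of all genes at an unadjusted p below 0.05 ran from 0.432% to 18.2%. Without control 3 and the library labelled Trp53 het 3, 4 of the 22 and 1 of the 19 were called in the average Llgl effect, against 15.8% of all genes. They were the repair and checkpoint genes Brca1 (1.57 on the log2 scale), Chek1 (0.93) and Parp1 (0.60), Banp (-0.48), and the mitotic kinase Aurka (1.90, adjusted p = 3.1e-05). Aurka was also called in Llgl cKO against control (1.54), where 2.80% of all genes were called in that fit, and in Llgl cKO Trp53 het against Trp53 het (2.26), where 7.37% were, and Brca1 and Parp1 in the latter. Of 16 regulators of Mdm2 and ribosomal proteins that sense nucleolar stress, 15 were tested and 0 called, and 5 had an unadjusted p below 0.05 in the average Llgl effect, beside 18.2% of all genes. Rassf1, a scaffold that promotes Mdm2 turnover, averaged 44.4 ± 6.57 CPM in control and 35.2 ± 4.78 CPM in Llgl cKO mice (SD, n = 3). Trp53 het and double mutant mice averaged 38.6 ± 3.51 and 27.9 ± 4.05 CPM. Its average Llgl effect was -0.40 (adjusted p = 0.0776) and its average Trp53 effect -0.27 (adjusted p = 1.00). Akt1, a kinase that acts on Mdm2, had 0.33 in the average Llgl effect (adjusted p = 0.113). Rpl5 and Rpl11, ribosomal proteins that bind Mdm2, had 0.43 and 0.40 in Llgl cKO Trp53 het against Trp53 het (adjusted p = 0.120 and 0.144). DESeq2 called 2 of the 15 in the average Llgl effect, beside 7.10% of all genes, and edgeR called 8 without control 3 and the library labelled Trp53 het 3, beside 15.8%. Cdkn2a, whose Arf product inhibits Mdm2, had 1 count in Llgl cKO Trp53 het 2 and 0 in the other 11 libraries, and was not tested.

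Among genes that p63 controls in epidermis, 2 of 26 rose in the average Llgl effect, where 1.18% of all genes were called higher, and 0 fell. Bmp7, a secreted growth factor at chr2:172868012-172940321, was at 137, 132 and 124 CPM in control and at 222, 187 and 163 CPM in Llgl cKO mice. It was at 147, 135 and 121 CPM in Trp53 het mice and at 191, 199 and 195 CPM in Llgl cKO Trp53 het mice. All 6 Llgl cKO libraries thus lay above all 6 with intact Llgl1/2, and Bmp7 rose by 0.54 on the log2 scale (SE 0.088, adjusted p = 0.0105). Satb1, a chromatin organizer, rose by 0.51 (SE 0.10, adjusted p = 0.0221). Its range was 72.4 to 95.2 CPM with intact Llgl1/2 and 93.0 to 144 CPM in the Llgl cKO groups, with an overlap at Llgl cKO 2 and control 3. Bmp7 stayed called in all 19 alternative fits, and Satb1 was not called in 7 of them, each without a single library. Without control 3 and the library labelled Trp53 het 3, 5 of the 26 were called, Fras1 (0.80) and Fgfr2 (0.33) higher and Col17a1 (-0.45) lower beside Bmp7 and Satb1, where 15.8% of all genes were called. The median average Llgl effect of the 26 genes was 0.11 (all genes -0.0026) and the median average Trp53 effect 0.030 (all genes -0.0075). In the 3 comparisons of Trp53 genotype 0 of the 26 were called by edgeR, beside 0% of all genes, and 0 by DESeq2. An unadjusted p below 0.05 was found for 1 of them, the homeobox gene Dlx3, in Llgl cKO Trp53 het against Llgl cKO. There 5.12% of all genes had one, and Dlx3 was at -0.52 (adjusted p = 0.943).

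Of 18 partners and regulators of p63, 17 were tested and 1 fell, in Llgl cKO Trp53 het against Trp53 het, where 0.919% of all genes were called lower. This was Kmt2d, a histone methyltransferase at chr15:98831669-98871204, with 306, 317 and 265 CPM in Trp53 het mice and 209, 171 and 209 CPM in Llgl cKO Trp53 het mice. Control mice had 276, 259.8 and 236 CPM and Llgl cKO mice 274, 278 and 252 CPM. The 3 double mutant libraries lay below the other 9, and Kmt2d fell by 0.59 on the log2 scale (SE 0.12, adjusted p = 0.0458). The call was lost in 12 of 20 alternative fits, with log2 differences between -0.51 and -0.67 when single libraries were left out. Its interaction was -0.65 (SE 0.17, adjusted p = 1.00). In the average Llgl effect 0 of the 17 were called by edgeR with all libraries and 2 by DESeq2, beside 3.33% and 7.10% of all genes. An unadjusted p below 0.05 was found for 3 of the 17, beside 18.2% of all genes. Kmt2d (-0.33) and the transcription factor gene Tcf7l1 (0.72) were called in this effect without control 3 and the library labelled Trp53 het 3. That fit called 15.8% of all genes in it. Of 12 partners of p73, 10 were tested and 0 called in any comparison by edgeR or DESeq2, and 0 had an unadjusted p below 0.05. Over all tested genes edgeR called 0% to 3.33%, depending on the comparison, and 0.432% to 18.2% had an unadjusted p below 0.05. In the average Llgl effect 2 of the 10 were called without control 3 and the library labelled Trp53 het 3. That fit called 15.8% of all genes there. The 2 were the cyclin B1 gene Ccnb1 (1.89, adjusted p = 3.4e-05) and the cell cycle transcription factor gene E2f1 (0.92, adjusted p = 0.0157). In that fit Ccnb1 was also called in Llgl cKO against control (1.56), where 2.80% of all genes were called. It was called too in Llgl cKO Trp53 het against Trp53 het (2.22), where 7.37% were. Foxj1 and Mcidas, which belong to the multiciliated programme that p73 governs, were not among the 10, and Mcidas had 0 counts in all libraries. Several genes stand on more than one list, among them Perp and Sfn (p53 and p63 targets) and Trp53inp1.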

How the data were processed

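Polyadenylated RNA of newborn mouse epidermis was sequenced in 12 libraries of 4 genotype groups, grouped by the labels, and the p-values measure the spread between these samples. The authors deposited raw counts per gene with no normalization, made with STAR, featureCounts 1.6.4 and DESeq2 2.11.40.8 on GRCm38, per the submitters' processing notes; annotation release and strand setting are not given in the sources used here. From these counts, edgeR 4.0.16 in R 4.3.3 was run with TMM scaling, filterByExpr (minimum count 10) and a robust quasi-likelihood fit of the 4 group means with 8 residual degrees of freedom. The call threshold was 0.05 after Benjamini-Hochberg adjustment over 14582 genes. Intervals are 95% and follow from the F statistic. Positions and exon lengths are from GENCODE M21, which held 45143 of the identifiers. Member levels were also compared by exact permutation. The script was tested on simulated data.

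Named genes were the members, overlapping genes, the 3 nearest genes by likeness, and list genes that were called (at most 5 per list and comparison) or, failing that, the 2 with the smallest p; 1 gene that this rule names is not reported here. The members and all lists were chosen with earlier results of these data known. Same-numbered control and Trp53 het libraries had deviations from their group means that correlated across genes at 0.62, 0.21 and 0.82. The second value is near the 0.18 of replicates 3 of control and Llgl cKO Trp53 het. The labels state no pairing, and differently numbered libraries were not compared, so whether the numbers pair these groups was not settled. Alternatives were DESeq2 1.42.0, median-of-ratios scaling, 2 other low-count filters, a fit of the compared groups alone, terms for sex or for replicate number (as a block), male libraries, and fits without libraries.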

Additional observations from a re-analysis of the deposited data

How the results depend on the processing

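Trp53 stayed below its intact level and uncalled in every alternative, with an average log2 difference between -0.94 and -0.53. No member was called in any alternative fit. With the replicate block the average was -0.62, Trp53 het against control was also -0.62, and no call of a member was made or lost. Same-numbered libraries of Trp53 het and Llgl cKO Trp53 het had deviations that correlated at -0.098, 0.16 and 0.17. The block moved the count of genes called in Llgl cKO Trp53 het against Trp53 het from 198 to 376. That count was 722 with DESeq2, 117 with only the groups compared, 1088 without control 3 and the library labelled Trp53 het 3, and 24 to 322 with single libraries left out. The average Llgl count of 485 was 1034 with DESeq2, 2334 without those 2 libraries and 164 to 697 with single libraries left out. For Llgl cKO against control the count of 33 became 114, 413 and 15 to 42 in the same order. Where the count was 0, it was 52 with DESeq2 and 1 without the 2 libraries in Llgl cKO Trp53 het against Llgl cKO (0 to 1 with single libraries left out), 1 without the 2 in Trp53 het against control (0 to 1), and 2 without them in the average Trp53 effect. The cause was not tested.

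Signs turned for members that were called in none of the fits. With sex as a term Trp53 was 0.071 in Llgl cKO against control and 0.027 in the average Llgl effect, Mdm2 was -0.042 in Llgl cKO against control, and the Trp73 interaction was 0.025. Without control 3 and the library labelled Trp53 het 3, Trp53 was 0.33 in Llgl cKO Trp53 het against Trp53 het, 0.16 in the average Llgl effect and 0.35 in the interaction, which was 0.0013 with the replicate block. Mdm2 without them was -0.11 in Llgl cKO against control, -0.064 in the average Llgl effect and -0.013 in Llgl cKO Trp53 het against Trp53 het. The relation of Trp53 and Trp63 turned from r = -0.025 to 0.10 when same-numbered control and Trp53 het libraries were averaged. That alternative was added after seeing the data.

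With single libraries left out, the ranges that crossed 0 were as follows. In the average Trp53 effect they were -0.040 to 0.11 for Trp63, -0.020 to 0.092 for Trp73 and -0.080 to 0.058 for Mdm2. In Trp53 het against control they were -0.0021 to 0.29, -0.061 to 0.16 and -0.20 to 0.078 for the same genes. In Llgl cKO Trp53 het against Llgl cKO they were -0.22 to 0.0029 for Trp63 and -0.088 to 0.14 for Trp73. In the average Llgl effect they were -0.14 to 0.15 for Trp53 and -0.0024 to 0.14 for Mdm2. In Llgl cKO against control they were -0.10 to 0.025 for Trp53, -0.12 to 0.16 for Mdm2 and -0.27 to 0.0011 for Mdm4. In Llgl cKO Trp53 het against Trp53 het they were -0.25 to 0.33 for Trp53, -0.049 to 0.16 for Trp63 and -0.012 to 0.19 for Mdm2. In the interaction they were -0.21 to 0.37 for Trp53, -0.14 to 0.098 for Trp73, -0.041 to 0.24 for Mdm2 and -0.21 to 0.063 for Mdm4.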

Other observations

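Of the 6 genes with the smallest p in the average Trp53 effect, 5 lie on chromosome 11, the chromosome of Trp53, as do 7 of the first 20 and 8.58% of all tested genes. They were chosen after their values were seen, and none was called (adjusted p = 1.00 for each in edgeR). Besides Sat2 and Trp53 they were AA465934 at chr11:83291699-83294632 (log2 difference 1.12), the cytokine receptor-like gene Crlf3 at chr11:80046493-80080991 (-0.31) and A830036E02Rik at chr11:99416956-99425497 (-1.35). AA465934 was at 2.78, 2.64 and 7.90 CPM in control and 3.37, 3.43 and 2.38 CPM in Llgl cKO mice. It was at 7.48, 5.81 and 10.4 CPM in Trp53 het mice and 8.55, 8.80 and 7.37 CPM in Llgl cKO Trp53 het mice, so control 3 stood with the libraries labelled heterozygous. Crlf3 lay between 19.4 and 21.2 CPM in the 3 Llgl cKO Trp53 het libraries and between 25.6 and 31.3 CPM in the other 9.

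The exception was Cyp24a1 on chromosome 2, the vitamin D 24-hydroxylase (log2 difference -2.19, adjusted p = 1.00 in edgeR). It was at 1.47, 1.36 and 4.27 CPM in control, at 1.92, 2.70 and 1.94 CPM in Llgl cKO, at 1.02, 1.31 and 3.84 CPM in Trp53 het and at 0.0785, 0.0854 and 0.167 CPM, or 1 to 2 counts, in Llgl cKO Trp53 het mice. The lower level was thus in the double mutants alone, and control 3 and the library labelled Trp53 het 3 had the highest levels.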
